A study of Mus musculus with 2 samples.

Results

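The major urinary protein (Mup) genes Mup1, Mup2, Mup3, Mup5, Mup11, Mup17, Mup18 and Mup20 and the transthyretin gene Ttr, 9 of the 37007 gene names on the array, were examined in epithelial cells of the mouse submandibular gland at 2 ages. They were listed because of their values on these same arrays, where most of them stood among the largest increases at the older age, so the sizes given here describe the members and were not tested. Members were found by the gene name in the scanner files, and all of their 14 probes are accounted for, 12 for Mup genes and 2 for Ttr. The files also name 11 other Mup genes and pseudogenes, and with these the Mup family had 27 probes. Cells carrying EpCAM (CD326), an adhesion molecule of epithelia, were taken on magnetic beads from submandibular glands of female C57BL/6 mice (C57BL/6N in the methods), and their RNA was hybridized to Agilent arrays, 1 for young mice (9 weeks old) and 1 for aged mice (24 months old). The methods state that young mice came from a commercial breeder and aged mice from an institute's own colony, so age and source cannot be told apart. As each age had a single array, differences lack a replicate check and no p-values are given. In these bulk samples, more cells of a type and more RNA per cell cannot be told apart.

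Mup genes encode small secreted proteins of the lipocalin family, whose barrel-shaped fold holds hydrophobic ligands such as pheromones. The liver makes most of the Mup protein that mice pass in urine, and some family members are expressed in salivary, lachrymal and other glands. In liver, expression depends on growth hormone acting through STAT5 and on androgens and glucocorticoids. Mup genes lie in a single cluster of near-identical copies and pseudogenes, so a probe designed for one copy can bind RNA from another. Transthyretin, by contrast, is not a lipocalin. It is a tetrameric carrier of thyroid hormone that also binds retinol-binding protein 4, and it is known mainly from liver, choroid plexus and pancreatic islets.

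The probes are oligonucleotides of about 60 bases. The signal of a probe is its intensity after the scanner software had subtracted the background, the error beside it is that of the software's error model, and a probe was called detected where the software marked its spot as well above background. The rank is the place of a probe by signal among 56597 probes. The level is the log2 of the signal over the 75th percentile of all non-control spots (256 at 9 weeks and 198 at 24 months), and the difference is the aged minus the young level, so that 1 is a 2-fold increase. Brightness also depends on the probe, so signals and ranks place each probe on its own arrays and do not give the relative amounts of different transcripts. Sorting markers were measured on both arrays: the signal of Epcam was 1778 at 9 weeks and 1573 at 24 months, with a difference of 0.20, and the 8 epithelial genes measured on both arrays had a median difference of 0.07 and a range from -0.55 to 0.54. Of the immune list, 2 of 5 genes measured on both arrays were at least 2-fold lower at 24 months. Of the stromal and vessel list, 2 of 6 were, where 3.05% of all genes were 2-fold lower. The summed signal of the immune list was 10907 at 24 months against 34302 on the young array, and that of the stromal and vessel list 1944 against 5000. Such list sums, here and below, are not scaled to the 75th percentile. As that percentile was lower on the aged array, genes of unchanged level would sum lower there. The part of immune, stromal and vessel cells in the values below was not tested.

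Nearly the whole Mup family was higher on the aged array. Of its 27 probes, 22 were detected on both arrays, and 21 of the 22 were at least 2-fold higher at 24 months, against 1.41% of all 26745 probes measured on both arrays. The median difference was 3.95 over the 22 Mup probes and 0.09 over all probes. Of the 30 probes on the array that were at least 8-fold higher, 17 were Mup probes and 1 was a Ttr probe. Among members alone, 10 of the 12 Mup probes were measured on both arrays, with a median difference of 4.004. For 7 of the 8 member Mup genes at least 1 probe was 2-fold higher or more, and Mup2 was the exception. Because the genes were chosen on this contrast, nothing is read from these counts against the background share.

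By rank, many Mup probes were among the brightest of the aged array. No Mup probe ranked among the 100 brightest probes of the young array, and 7 did so on the aged array. Among the 1000 brightest, there were 3 Mup probes at 9 weeks and 16 at 24 months. The Mup probes held 0.213% of the summed signal of all probes at 9 weeks and 2.46% at 24 months. The family was thus already measured in the young cells, with 22 of its probes detected there. Probes that were brighter on the young array were also brighter on the aged one, with a Spearman coefficient of 0.94 and a Pearson coefficient of 0.95 between the levels of the 22 probes, as a description of probes that share arrays and sequence.

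**Figure D1:**
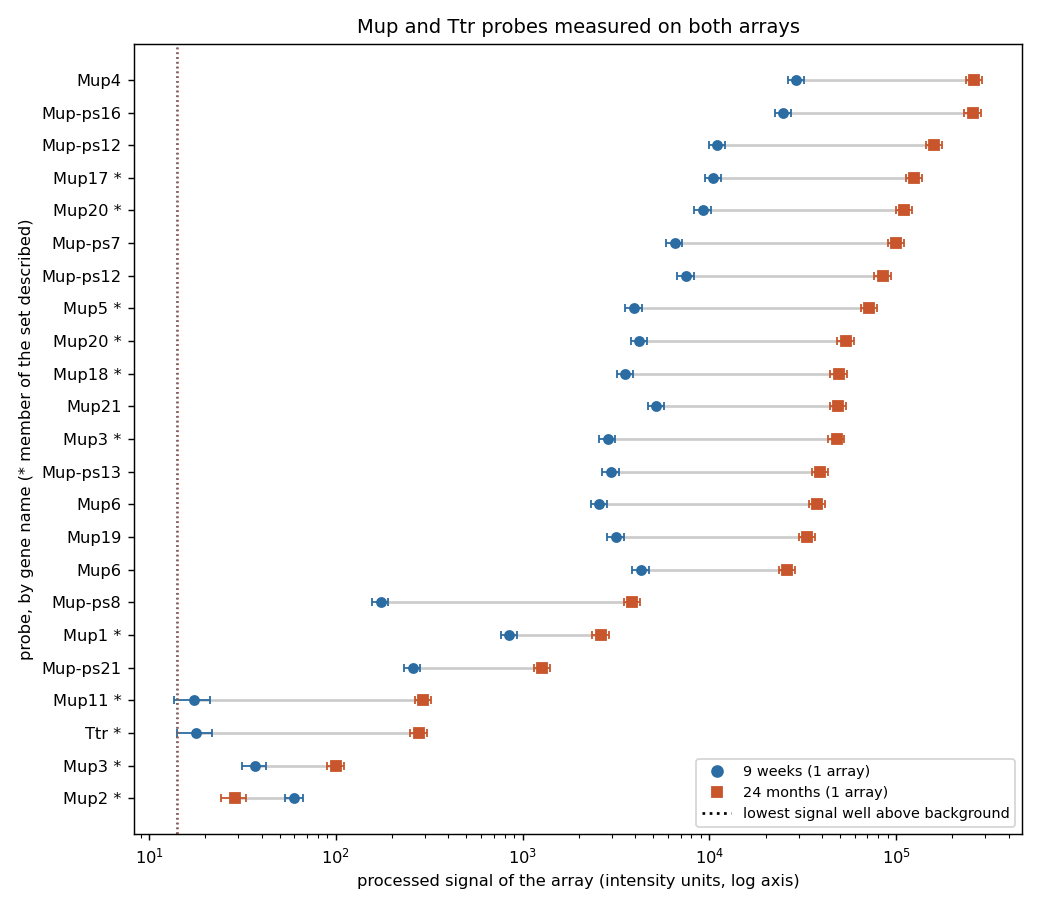
Processed signal (intensity units, log axis) of the 22 Mup probes and the Ttr probe that were detected on both arrays, at 9 weeks (circles) and 24 months (squares), with bars for the error of the scanner software and dotted lines for the lowest signal called detected. Every line runs to the right with age but that of Mup2, at the bottom, which goes from 59.9 to 28.6.

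Mup17, Mup20, Mup5, Mup18 and Mup3 each had a probe that reached the 1000 brightest of the aged array. The signal of Mup17 was 10490 (error 1049) at 9 weeks and 125153 (error 12515) at 24 months, so that its rank went from 1017 to 64. This is a difference of 3.95 (15.4-fold), with an error of 0.20 from the software's model. The annotation on the array lists transcripts of Mup11, Mup16 and Mup17 for this probe. The probe lies at chr4:61253019-61253078 on the reverse strand (mm9, the build of the files, as for all probe positions here).

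Mup20 encodes darcin, a male urinary protein that attracts females, and both of its probes list no other gene. One, at chr4:61711407-61711466, had a signal of 9217 (error 922) at 9 weeks and 110486 (error 11049) at 24 months, a difference of 3.96 (15.5-fold) and a move in rank from 1144 to 70. The other, at chr4:61713671-61713730, went from 4201 (error 420) to 53834 (error 5383), a difference of 4.05 (16.6-fold) and a move from rank 2171 to 179. The probes of Mup20 therefore gave differences that lay within their errors of 0.20 of each other. The probe at chr4:61711407-61711466 differs from that of the pseudogene Mup-ps16 at 6 of 55 overlapping bases and from that of Mup4 at 7 of 52. Those 2 probes were brighter, with aged signals of 257398 and 261808. Whether RNA of other copies adds to the Mup20 signals was not tested.

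Mup5 had the largest difference among the members. Its probe at chr4:61496097-61496156 had a signal of 3938 (error 394) at 9 weeks and 71848 (error 7185) at 24 months, and went from rank 2280 to 129. The difference was 4.56 (23.6-fold). Mup18, whose probe at chr4:61331294-61331353 also lists Mup16 and Mup19, went from 3549 (error 355) to 49281 (error 4928), from rank 2468 to 204, with a difference of 4.17 (17.97-fold). The Mup5 probe begins at an ATG followed by an open reading frame and lists no other gene. It is shown with the ATG in capitals.
Mup5: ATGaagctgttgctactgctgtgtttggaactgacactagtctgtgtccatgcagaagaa

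Mup3 was read by 3 probes, whose differences were not alike. The probe at chr4:61745794-61745853 had a signal of 2849 (error 285) at 9 weeks and 47869 (error 4787) at 24 months, with a difference of 4.44 (21.7-fold) and ranks of 2923 and 213. The probe at chr4:61743330-61743389, which the files describe by a cDNA clone and not by the RefSeq transcript, had signals of 36.8 (error 5.24) and 100 (error 10.7). Its difference was 1.81 (3.52-fold), or 0.94 and so under 2-fold after the normexp background correction. That correction was run with an offset of 50 added to every signal, which shrinks the differences of dim probes. The third, at chr4:61744500-61744548, was detected on neither array, with signals of 15.1 and 18.2. The increase of Mup3 thus rests mainly on the first probe, which shares its 60-base window with probes for 3 Mup pseudogenes.

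These probes are shown because they carry much of the increase and because they differ from each other at few positions. Capitals mark the 12 positions at which the 4 probes are not all alike.
Mup3: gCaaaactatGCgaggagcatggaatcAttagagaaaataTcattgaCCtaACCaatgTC
Mup-ps7: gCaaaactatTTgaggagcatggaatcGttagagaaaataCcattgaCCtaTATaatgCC
Mup-ps8: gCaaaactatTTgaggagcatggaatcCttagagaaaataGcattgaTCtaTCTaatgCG
Mup-ps12: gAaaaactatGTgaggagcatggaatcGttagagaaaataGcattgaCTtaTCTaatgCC

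The Mup3 probe differs from the probe of pseudogene Mup-ps7 at 8 of 60 bases, from that of Mup-ps12 at 8 and from that of Mup-ps8 at 9, whereas the pseudogene probes differ from each other at 5 or 6. Mup-ps7 (chr4:60693053-60693112, forward strand) went from 6517 on the young to 100178 on the aged array, a difference of 4.31. Mup-ps12 (chr4:61115734-61115793, forward strand) went from 10988 to 159441, a difference of 4.23. Mup-ps8 (chr4:60754148-60754207, forward strand) had lower signals, of 173 and 3851, and a difference of 4.85 (28.7-fold), the largest of all genes measured on both arrays by the brightest probe of each. All 4 probes of this window were thus between 4.23 and 4.85 higher. How far they read a common set of transcripts was not tested, and the pseudogene names stand for probes and not for transcripts known to come from these loci.

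A second pair of probes over a common window gave unequal differences. The Mup20 probe with signals of 4201 and 53834 lies over the same 60 bases as the probe of the pseudogene Mup-ps21 at chr4:61691724-61691783, from which it differs at 6 positions, given in capitals.
Mup20: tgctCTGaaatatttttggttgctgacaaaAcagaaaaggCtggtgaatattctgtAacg
Mup-ps21: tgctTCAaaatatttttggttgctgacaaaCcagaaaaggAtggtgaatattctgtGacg

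Mup-ps21 had signals of 257 (error 25.9) and 1270 (error 127), a difference of 2.68 (6.39-fold) against 4.05 for Mup20. The errors of these differences in the software's model were 0.20 and 0.21. The increase of Mup-ps21 was therefore smaller by more than these errors, which do not cover the spread between mice.

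Mup1 had a smaller increase than most of the family. Its probe at chr4:60512590-60512649 had a signal of 847 (error 84.8) at 9 weeks and 2622 (error 262) at 24 months, a difference of 2.002 (4.01-fold), and moved from rank 6638 to 2866. The annotation lists Mup1, Mup2, Mup19 and Mup22 for it.

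A probe of Mup21, which is not a member, also lists Mup1, Mup2 and Mup19, and it had signals of 5193 (error 519) and 48886 (error 4889) and a difference of 3.61 (12.2-fold). The other Mup21 probe, at chr4:61808866-61808925, was detected at 24 months only, with a signal of 47.4, and was at least 4.36-fold higher there when set against the lowest signal detected at 9 weeks. Both Mup21 probes and the Mup1 probe were thus higher at 24 months.

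Mup2 was the only Mup gene with a lower value on the aged array. Its probe at chr4:60149741-60149800 had a signal of 59.9 (error 6.83) at 9 weeks and 28.6 (error 4.40) at 24 months, and its rank went from 21116 to 23757. The difference of -0.69 (1.62-fold lower, error 0.28) did not reach 2-fold and lay between -0.95 and -0.14 over the scalings tried. The annotation lists Mup1 as well as Mup2 for this probe, whereas the Mup1 probe, which lists both genes too, was higher on the aged array. Of the 6 Mup probes measured on both arrays that list more than 1 Mup gene, the differences ran from -0.69 to 4.17 with a median of 3.69, and over the other 16 from 1.81 to 4.85 with a median of 4.07.

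Mup11 was read near the lower end of the scale. Its probe at chr4:60149947-60150006, only 206 bases from that of Mup2 by start and 522 kb from the other Mup11 probe, had a signal of 17.4 (error 3.74) on the young array, little above the lowest signal detected there (14.1), and of 294 (error 29.6) on the aged array. Its rank went from 29756 to 10351 and its difference was 4.45 (21.8-fold, error 0.34), which fell to 2.45 after the normexp correction. A second Mup11 probe, at chr4:60671856-60671915, was detected on neither array. The value and place of Mup11 thus come from a probe beside that of Mup2, and the 2 probes gave opposite signs. Mup11 transcripts are listed for the Mup17 probe as well.

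Promoter windows from RefSeq (GRCm38.p6) were taken for 9 Mup genes, and those of Mup2 and Mup17 are set side by side. The members Mup1, Mup5 and Mup20 were not among the 9. The probe named for Mup2 was not higher on the aged array, and that named for Mup17 was. The Mup1 probe and a Mup21 probe, which also list Mup2, were higher. Whether Mup2 itself differed from Mup17 therefore cannot be told from these probes. The 150 bases before the annotated start are shown for each, with the letters TATATAA, those of a TATA box, in capitals. The Mup2 stretch is chr4:60139857-60140006 and that of Mup17 chr4:61595833-61595982, both on the reverse strand of GRCm38.p6.
Mup2: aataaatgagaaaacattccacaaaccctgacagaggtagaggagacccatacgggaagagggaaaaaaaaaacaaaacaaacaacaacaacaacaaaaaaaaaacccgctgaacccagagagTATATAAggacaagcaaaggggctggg
Mup17: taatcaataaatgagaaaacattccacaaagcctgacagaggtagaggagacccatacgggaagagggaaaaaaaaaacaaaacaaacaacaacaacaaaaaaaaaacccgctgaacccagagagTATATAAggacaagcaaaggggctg

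Over the 250 bases before the start, the Mup2 and Mup17 windows were identical at 243 of 245 aligned bases (99.2%). Among all pairs of the 9 Mup promoters the identity ran from 84.4%, between Mup3 and Mup11, to 99.6%, between Mup11 and Mup17. TATATAA was searched on both strands and was found in 8 of the 9 Mup windows, and in 3.04% of 32851 mouse promoter windows of the same length. The Mup11 window ends, at its annotated start, with the letters gagagta, which run on into the motif in the Mup2 and Mup17 windows. The letters TTCNNNGAA, the core of sites bound by STAT5, were in none of the 9 and in 7.02% of all windows. These matches describe the letters in the windows and were not related to binding.

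The other Mup genes measured on both arrays, none of them members, were higher as well. Mup4, read by a probe that lists no other gene, had signals of 29118 (error 2912) and 261808 (error 26181), with ranks of 359 and 20 and a difference of 3.54 (11.6-fold), which was 2.88 with loess. The Mup4 probe differs from a probe of Mup-ps16 at only 4 of 47 overlapping bases. Mup6 differed by 4.25 by one probe and by 2.97 by another, and Mup19 by 3.78. Pseudogene Mup-ps16 went from 24850 to 257398, a difference of 3.74, by the brighter of its probes, and Mup-ps13 differed by 4.09. The differences of these Mup probes outside the members, where detected on both arrays, ran from 2.68 to 4.85. In all, 4 of the 27 Mup probes were detected on neither array, namely 1 each of Mup3, Mup11, Mup-ps15 and Mup-ps16.

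**Figure D2:**
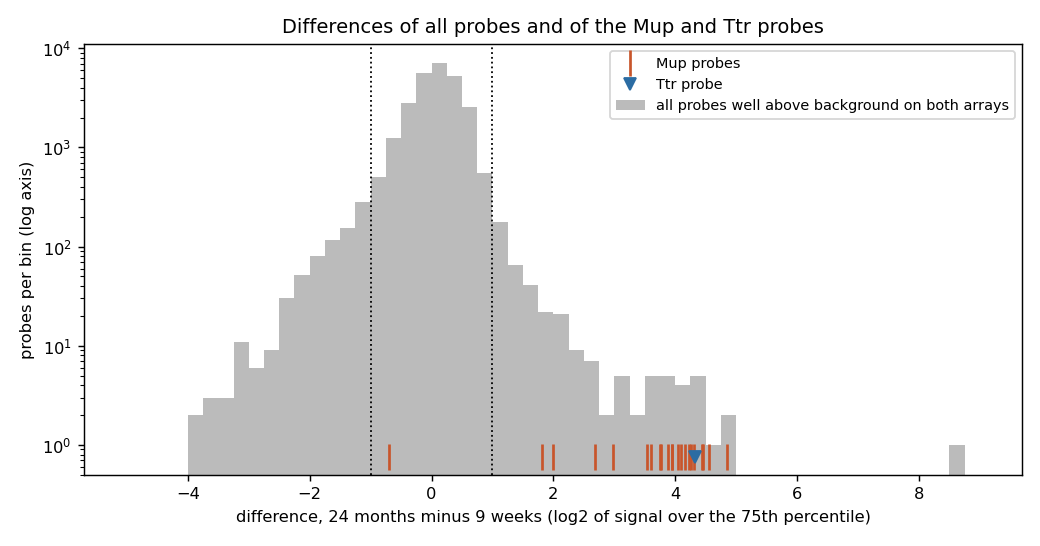
Number of probes (log axis) by difference between the arrays (log2, aged minus young, in steps along the x axis) for the 26745 probes detected on both arrays, with ticks for the 22 Mup probes and a triangle for the Ttr probe. Dotted lines mark 2-fold; the bulk lies around its median of 0.09 and most Mup ticks lie beyond 3, while the single probe beyond 8 is an immunoglobulin probe.

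Genes around the Mup cluster did not share the increase. The Mup probes span 1840 kb of chromosome 4, and within 2 Mb on either side 42 other genes were measured on both arrays, 20 before and 22 after the cluster, with none inside it. Their median difference was 0.17, in a range from -1.03 to 1.33. At least 2-fold higher were Susd1, with a difference of 1.31, and the predicted gene Gm35402, with 1.33, against 1.52% of all genes, and Snx30, a sorting nexin, was 2-fold lower with -1.03. Of genes with a signal on 1 array only, the zinc finger gene Zfp37, 44.0 kb beyond the cluster, was at least 6.05-fold lower at 24 months, where it was undetected, and Tnfsf15, 1576 kb beyond it, at least 7.005-fold lower. No neighbour measured on both arrays reached the smallest increase of a Mup probe, 1.81.

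**Figure D3:**
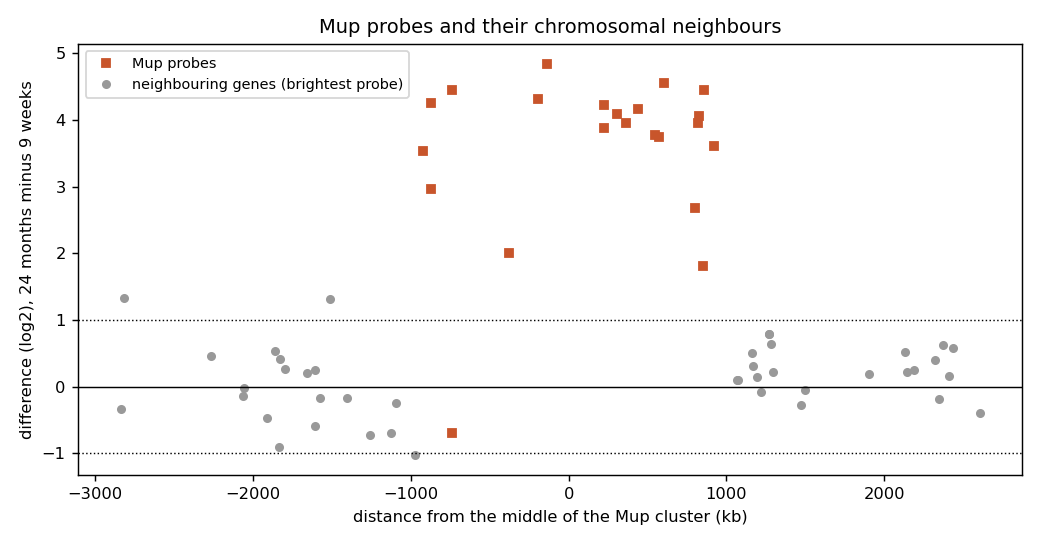
Difference between the arrays (log2, aged minus young) of the 22 Mup probes (squares) and of 42 neighbouring genes by their brightest probe (circles) against the distance in kb from the middle of the Mup cluster. All Mup probes but that of Mup2 lie above 1.8, and the neighbours lie between -1.03 and 1.33.

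Ttr was detected by 1 of its 2 probes. The signal of that probe was 17.9 (error 3.76) on the young array, close to the lowest signal called detected (14.1), and 278 (error 28.0) on the aged array. Its rank went from 29576 to 10599, and the difference was 4.33 (20.1-fold, error 0.34), or 2.36 after the normexp background correction. The other Ttr probe, 4034 bases farther along the gene, was detected on neither array, where the software wrote substitute values of 3.23 and 3.27. Both probes list the same Ttr transcript and no other gene. They lie at chr18:20828519-20828577 and chr18:20832612-20832672 on the forward strand. Within 1 Mb of Ttr, 10 genes were measured on both arrays, with a median difference of -0.09. They ranged from -0.99, for the desmosomal cadherin Dsc2, to 0.44, and none differed by 2-fold. Over all genes, 1.52% were 2-fold higher and 3.05% lower.

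Genes of retinol and thyroid hormone handling, the pathways of the transthyretin ligands, did not share the increase of the 1 detected Ttr probe. The probe of Rbp4, the retinol carrier that transthyretin binds, was detected on neither array (3.58 and 3.50). Of 15 genes of retinoid transport and metabolism measured on both arrays, none was 2-fold higher and 1 was 2-fold lower, against 3.05% of all genes. This was Aldh1a2, an enzyme that makes retinoic acid, which went from 240 to 19.2, a difference of -3.27. The median of the list was -0.01. Stra6, the receptor for retinol-binding protein, had a difference of 0.26. Crabp1, a carrier of retinoic acid within cells, was detected at 9 weeks only, and its aged signal was at least 6.37-fold lower. Of the 5 genes of thyroid hormone transport and action that were measured on both arrays, none differed by 2-fold. Over all genes, 1.52% were 2-fold higher and 3.05% lower. The thyroid hormone receptors Thra and Thrb had differences of -0.68 and -0.26.

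Genes known to govern Mup transcription in liver were given by a list of 21. Of these, 13 were measured on both arrays, and none was 2-fold higher or lower. Over all genes, 1.52% were 2-fold higher and 3.05% lower, shares at which a list of this size may well hold none. The growth hormone receptor gene Ghr had signals of 744 and 362 and a difference of -0.67. Stat5a differed by 0.33 and Stat5b, the form most used in liver, by -0.16. Cish and Socs2, which STAT5 induces, had differences of -0.09 and 0.24. The glucocorticoid receptor gene Nr3c1 went from 766 to 335, a difference of -0.82. Bcl6, a repressor of STAT5 targets, had the highest value, 0.69. Onecut1, a factor of liver and pancreas, was undetected at 9 weeks and had a signal of 97.6 on the aged array, at least 8.98-fold higher, and Zhx2, a repressor of several liver genes, was at least 1.73-fold higher. Foxa2 was detected at 9 weeks only, with a signal of 17.9 against 2.90 on the aged array, too near the detection limit for a fold. Hnf4a, Foxa3, Cux2 and Esr1 were detected on neither array.

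Other lipocalins, the wider family of the Mup proteins, gave no like pattern. Of 22 genes, 10 were detected on at least 1 array and 8 on both, with a median difference of 0.14. Lcn2, an iron-siderophore carrier of innate immunity, went from 131 to 319 and was the only one 2-fold higher, with 1.65, against 1.52% of all genes. Apod differed by 0.36, Lcn12 by 0.17 and the odorant-binding gene Obp1a by -0.24. Ambp, Orm1, Orm2 and Apom, which liver expresses, were detected on neither array.

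Many defining genes of tissues that make Mup protein or transthyretin were undetected or dim, while others were well detected. Of 15 liver genes, 7 were detected on neither array, among them albumin (Alb, 4.89 and 2.97) and Apoa1 (3.62 on both). The 6 measured on both arrays had a median difference of 0.08 and a range from -0.37 to 0.34, none 2-fold. Of these 6, Apoa2 (signals of 1740 and 1355), Cps1 (1153 and 872), Serpina1a (583 and 349) and Fgg (557 and 479) were well detected. Apoc3 (36.2 and 31.8) and Fga were dimmer. The summed signal of the liver list, not scaled between the arrays, was 4229 at 9 weeks and 3165 at 24 months. Gc, the vitamin D binding protein, was read on the aged array only (18.7, at least 1.72-fold higher), and the fibrinogen gene Fgb on the young array only, at least 5.12-fold lower on the aged one. Of 6 choroid plexus genes, Kl, Kcnj13, Otx2 and Slc4a5 were detected on neither array, Folr1 differed by 0.59 and Clic6, a chloride channel protein, by 1.51, from 234 to 515, and the summed signals were 7025 and 8390. Of 7 islet genes, insulin (Ins1 and Ins2) was undetected, 2 were measured on both arrays with none 2-fold, and Iapp, the islet amyloid peptide, was at least 3.63-fold higher with a signal of 39.5 on the aged array. Sst and Chga were also detected at 24 months only, at least 1.58-fold and 1.502-fold higher, the list summing to 127 and 159. Among 5 mammary and 6 adipocyte genes, no gene measured on both arrays differed by 2-fold, with sums of 455 and 457 for mammary and 1249 and 1065 for adipocyte genes. Of all genes measured on both arrays, 1.52% were 2-fold higher and 3.05% lower. At these shares, lists as short as those of this paragraph may well hold none.

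Secretory genes of the gland itself gave no common shift. Of 7 acinar genes, Bpifa2, a parotid secretory protein, was 2.87-fold higher (1.52) and Smgc, a mucin-like protein of the early gland, was 3.45-fold lower (-1.79), while Aqp5, the water channel of acinar cells, differed by 0.49. The 6 genes of the granular ducts, which include Egf and the kallikreins, had a median difference of -0.11, none 2-fold. Over all genes, 1.52% were 2-fold higher and 3.05% lower. The kallikrein gene Klk1 had signals of 244304 and 176580 and a difference of -0.10.

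**Figure D4:**
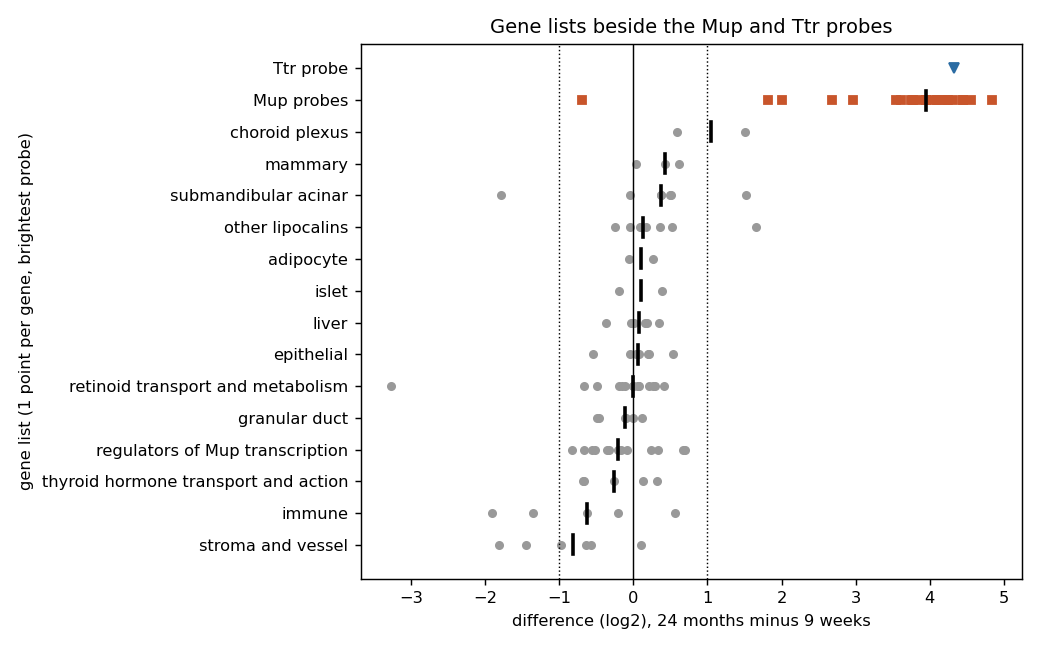
Difference between the arrays (log2, aged minus young) for each gene measured on both arrays in 14 lists (circles, brightest probe, 1 row per list), for the 22 Mup probes (squares) and for the Ttr probe (triangle). Short black bars are medians and dotted lines mark 2-fold; the Mup median of 3.95 and the Ttr value of 4.33 lie to the right of every gene in the lists.

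Among 18745 genes measured on both arrays, each by its brightest probe, member genes held the 3rd to 6th largest differences, namely Mup5, Mup11, Mup3 and Ttr, and Mup18, Mup20, Mup17 and Mup1 the places 9, 11, 12 and 58, whereas Mup2 was at place 17677. By the same brightest probes, the largest differences outside the Mup family and Ttr were 4.80 for a long intergenic noncoding RNA, 3.87 for the immunoglobulin heavy constant mu gene, 3.73 for Dmbt1, a secreted scavenger receptor of mucosal surfaces, 3.69 for the predicted gene Gm12888 and 3.40 for 2310057J18Rik, which went from 24868 to 202559. Over single probes, the largest difference on the array was 8.53, by a probe of the immunoglobulin heavy constant gamma 2C gene that went from 15.2 to 4321.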

How the data were processed

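The authors hybridized Cy3-labelled RNA to Agilent mouse arrays, and the deposited scanner files, made with Agilent Feature Extraction 12.0.3.1 per the labels, give a background-subtracted intensity and its error for each spot. The deposited value table of the series holds the same intensities as a ratio to 1 constant per array, 228.7 (young) and 176.0 (aged), and served as an alternative only. From 59305 non-control spots, 132 spots marked as outliers were removed, and spots of the same probe were averaged. The log2 intensity was set against the 75th percentile of its array, as in the methods, and a 2-fold difference was the threshold. Probes had to be well above background on both arrays for a difference; where only 1 array measured a probe, the fold is a lower limit against the lowest signal well above background (14.1 young, 14.3 aged). The brightest kept probe stood for a gene in lists.

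The members and lists were chosen with earlier results of these data known. Genes named were all members, all Mup-named genes, genes of the lists and the 5 largest differences elsewhere by the brightest probe of each gene. Positions are those of the files (mm9), which give no exon or UTR. RefSeq names (GRCm38.p6) matched 33767 of 56597 probes. Probes were compared without gaps over at least 40 bases. R 4.3.3 with limma 3.58.1 and Python 3.11.15 with numpy 2.4.6, pandas 2.3.3 and matplotlib 3.10.9 were used, and the steps were tested on simulated data. No spot was saturated. Each array stands for 1 sample, which limits the precision: the 293 probes with repeated spots had a median SD of 0.0335 in their difference, which covers spots and not mice.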

Additional observations from a re-analysis of the deposited data

How the results depend on the processing

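Over the 33 alternatives, the Mup median and the Ttr difference stayed positive, while the count of Mup probes at least 2-fold higher has no sign to keep. As only 1 Ttr probe was detected, the settings that changed the filter or averaged Ttr probes gave the same Ttr value by construction. The median of 3.95 became 3.46 with quantile normalization, 3.39 with loess and 3.70 with the arrays level on 8 spike-in controls, moves of more than the error of 0.20, and lay between 3.82 and 4.13 otherwise. The count of 21 was 17 with 1 value per gene name and 20 to 22 otherwise. The Ttr difference of 4.33 became 2.36 after normexp and was between 4.08 and 4.51 otherwise. Mup1 ranged from 1.75 to 2.18 and Mup4 from 2.88 to 3.72. The median of all probes moved by 0.17 with centring on the median, by -0.11 with the percentile over probes above background, by -0.12 with loess and by -0.26 with the spike-in controls. Probes 2-fold higher and lower numbered 376 and 750 as reported, 633 and 530 with centring on the median, 274 and 936 with the percentile over probes above background, 458 and 673 with quantile normalization, 334 and 809 with loess, 195 and 1275 with the spike-in controls and 123 and 238 after normexp. Centring on the median, the percentile over probes above background and the spike-in controls each shift all probes by 1 constant. Normexp was run with an offset of 50 added to every signal, which draws the differences of dim probes toward no change. How much of each normexp, quantile or loess move came from which probes was not tested. Signals near 14, such as those of Ttr and Mup11 on the young array, limit the precision of their differences. No paired analysis was possible because each age had 1 array.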
